A study of Mus musculus with 87 samples.

Results

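Liver that regrows after partial hepatectomy (PH) was compared here with liver after sham surgery at one matched time, 48 h. The comparison was defined by its samples: the 5 livers labelled as 48 h post-PH (X48) and the 3 labelled as sham controls at 48 h (S48), that is 8 of the 80 livers with a column of values in the series. All 8 came from male C57BL/6 mice of 12 to 14 weeks, entrained to a light and dark cycle with food given only in the dark, operated under isoflurane at ZT2 (ZT, Zeitgeber Time, counts hours from the start of the light) and killed at ZT2. The X48 mice lost the larger part of the liver and the S48 mice had the abdomen opened without resection, and in both groups each liver was 1 library of poly(A)-selected RNA. Livers of control mice at 0 h (C0, n = 9), called resting below, and the livers at 20 h (X20, n = 6; S20, n = 3) are given as background. The question was which transcripts differed between PH and sham liver when the time after surgery, the anesthesia and the time of day were shared.

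In the resting adult liver nearly all hepatocytes are outside the cell cycle. Resection drives them back in, through cyclin D and E2F factors, which open the synthesis of DNA, and then through cyclin A, cyclin B and the kinase CDK1, which carry the cell into mitosis. Genes of the mitotic phase share promoters with CCAAT boxes and with the CHR element, where DREAM and MMB-FOXM1 complexes hold them silent in rest and raise them late in the cycle. While they divide, hepatocytes go on serving the body with plasma proteins, bile acids, urea, glucose and lipids.

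The promoters of 5 mitotic genes and of 1 replication gene are shown. The mitotic genes were picked from the 8 largest rises of the comparison, of which Plk1 and Ckap2l, also mitotic, are not shown. Mcm5 is given as a gene of the earlier phase. Each line gives the 130 bases before the start of the gene in RefSeq on GRCm38.p6, read 5′ to 3′ on the strand of the gene, and capitals mark CCAAT and the CHR letters TTTGAA on either strand.
Ccnb1 (chr13:100786487-100786616, minus strand): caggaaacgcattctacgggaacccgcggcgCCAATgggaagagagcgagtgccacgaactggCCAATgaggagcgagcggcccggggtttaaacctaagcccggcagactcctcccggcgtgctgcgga
Ccnb2 (chr9:70421555-70421684, minus strand): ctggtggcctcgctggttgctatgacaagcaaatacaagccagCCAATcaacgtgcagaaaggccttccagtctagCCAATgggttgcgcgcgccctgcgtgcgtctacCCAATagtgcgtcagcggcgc
Cdk1 (chr10:69352913-69353042, minus strand): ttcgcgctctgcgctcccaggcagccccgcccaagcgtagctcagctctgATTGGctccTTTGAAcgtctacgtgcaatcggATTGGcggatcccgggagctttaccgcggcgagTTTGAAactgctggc
Cdc20 (chr4:118437344-118437473, minus strand): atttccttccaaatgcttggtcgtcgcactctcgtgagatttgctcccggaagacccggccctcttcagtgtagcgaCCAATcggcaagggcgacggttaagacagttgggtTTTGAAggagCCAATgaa
Ube2c (chr2:164769799-164769928, plus strand): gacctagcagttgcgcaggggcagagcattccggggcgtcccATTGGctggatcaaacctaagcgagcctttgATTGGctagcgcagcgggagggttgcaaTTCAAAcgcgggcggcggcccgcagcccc
Mcm5 (chr8:75109379-75109508, plus strand): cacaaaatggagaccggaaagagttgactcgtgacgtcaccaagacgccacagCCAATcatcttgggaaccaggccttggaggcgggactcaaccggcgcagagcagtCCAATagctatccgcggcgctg
Ccnb1 held 2 CCAAT boxes in this window, Ccnb2 held 3 and Mcm5 held 2, all without TTTGAA. Cdk1 held 2 of each, Ube2c held 2 CCAAT and 1 TTTGAA, and Cdc20 held 2 CCAAT and 1 TTTGAA. Other forms of the CHR and bases after the start were not searched. In the 250 bases before the start, CCAAT was present in 65.4% of the 81 promoters of the lists of mitotic kinases, kinetochore and spindle genes and TTTGAA in 34.6%, beside 33.8% and 16.0% of all 32817 promoters of the table and 35.5% and 11.4% of the 11688 promoters of detected genes. The 59 promoters of the replication list held CCAAT in 50.9% and TTTGAA in 11.9%. These promoters belong to 74 of the 91 detected genes of the mitotic lists and to 47 of the 57 of the replication list. A match of letters is a description and not a site of binding.

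The values are RPKM, the read count of a gene divided by its exonic length and by the size of the library, and differences are X48 minus S48 on log2(RPKM + 0.25), with the standard error (SE) of the fit. Where the values of all livers are listed, they stand in the order of the replicate numbers. Calls needed both an adjusted p (limma, over the 15396 detected genes) below 0.05 and a log2 difference beyond 0.5. As deposited, 4187 genes were called, 27.2% of those tested, with 3773 (24.5%) higher and 414 (2.69%) lower in X48. The median detected gene was itself 0.27 higher in X48 on the log2 scale. After each library had been brought to one median of its own detected genes, a shift of 0.29 between the groups, 2648 genes were called (17.2%), 1467 of them higher (9.53%) and 1181 lower (7.67%). The share of the calls that were higher was thus 90.1% as deposited and 55.4% at one median, and it was 64.0% at one upper quartile, 55.7% after centring on the median gene, 50.9% after quantile normalization and 30.7% when the median was set over one common set of genes. A gene is said below to have risen or fallen when it was called in the same direction both as deposited and at one median. This held for 1881 genes (12.2%), of which 1467 rose (9.53%) and 414 fell (2.69%). The values of X48 and S48 livers did not overlap for 45.9% of all detected genes, and the genes given below with all their values did not overlap unless this is said. RNA of a bulk liver cannot tell apart fewer cells of one type and less RNA in each of them.

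**Figure D1:**
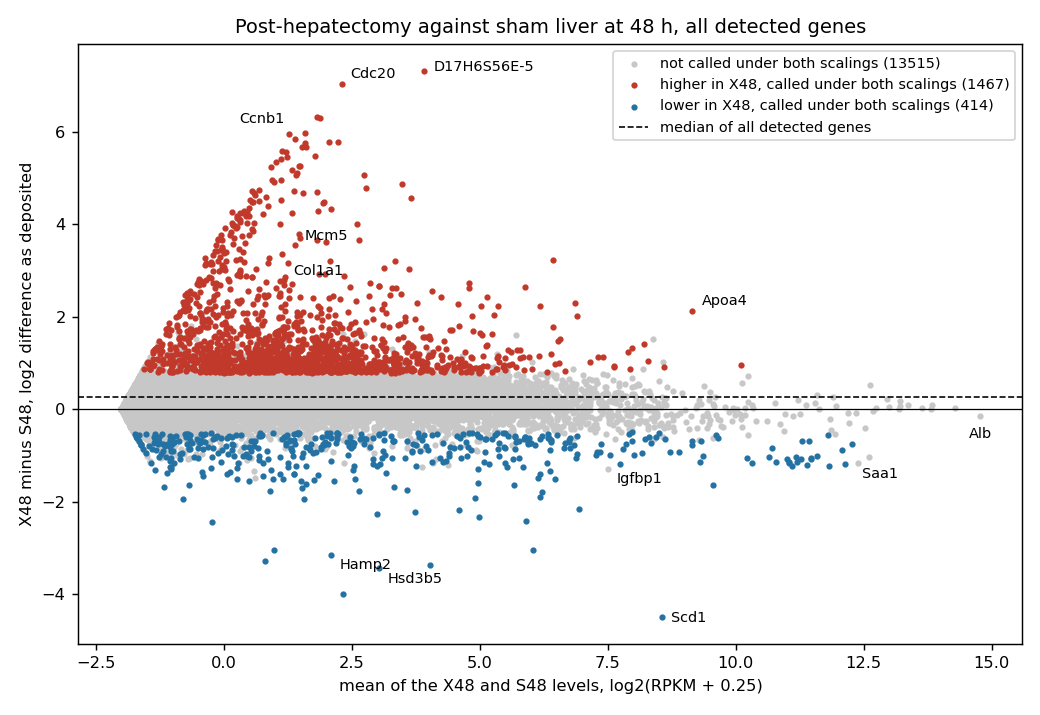
Each point is 1 of the 15396 detected genes, with the mean of the X48 and S48 levels in log2(RPKM + 0.25) on the x axis and the log2 difference X48 minus S48 as deposited on the y axis. Red points (1467) rose and blue points (414) fell under both scalings, and the dashed line is the median gene at 0.27. The largest differences are rises of genes near 0 in sham liver, and Scd1 is the lowest point.

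Large differences were more often rises than falls, to a degree that depended on the scaling. Of the genes that rose, 978 did so by more than 1 on the log2 scale as deposited, 295 by more than 2 and 134 by more than 3. Of those that fell, 136 did so by more than 1, 15 by more than 2 and 8 by more than 3. Measured at one median, calls beyond 1 were 597 higher and 292 lower. Among genes with a mean above 1 RPKM in a group and no overlap of livers, the 8 largest rises were D17H6S56E-5, Cdc20, Ube2c, Ccnb2, Plk1, Ccnb1, Ckap2l and Cdk1. All except D17H6S56E-5 encode known parts of the mitotic machinery. D17H6S56E-5, a protein-coding gene at chr17:35133681-35138609 on mm9, stood at 155, 212, 151, 249 and 200.4 RPKM in the X48 livers and at 0.588, 0.746 and 1.81 in the S48 livers, a log2 difference of 7.31 (SE 0.38, adjusted p = 5.6e-26). It was the largest rise of the comparison and its mean in X48 was above that of every gene in the mitotic, kinetochore and spindle lists.

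The entry into the cycle was examined first, in a list of G1 cyclins, E2F factors and regulators of the G1 to S transition. Of its 24 detected members 12 rose and none fell, against 9.53% and 2.69% of all detected genes, and the median difference was 0.79 as deposited and 0.50 at one median. Ccnd1, the cyclin that answers mitogens, stood at 49.3, 23.5, 20.5, 17.6 and 24.6 RPKM in X48 and 1.95, 4.89 and 6.10 in S48. No X48 liver came down to the sham range, and the difference was 2.62 (SE 0.38, adjusted p = 4.6e-08). Ccne2, the cyclin E that activates CDK2, was low in both groups, at 1.02, 1.01, 0.771, 1.14 and 1.48 RPKM and 0.224, 0.407 and 0.154 RPKM, and rose by 1.39 (SE 0.23, adjusted p = 1.4e-06). The largest rise of the list was that of Rbl1, which encodes the pocket protein p107 and is itself an E2F target. Its levels were 2.54, 4.30, 3.39, 4.36 and 4.17 RPKM in X48 and 0.184, 0.298 and 0.421 in S48, a difference of 2.86 (SE 0.21, adjusted p = 1.5e-18).

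The inhibitors of cyclin-dependent kinases were not all called, and none fell. Cdkn2c, which encodes the CDK4 and CDK6 inhibitor p18, stood at 8.80, 13.5, 13.2, 16.3 and 12.3 RPKM in X48 and at 1.07, 1.18 and 1.15 in S48, without overlap, and rose by 3.21 (SE 0.17, adjusted p = 8.3e-26). Cdkn1b (1.13) and Cdkn2d (2.44), named after their values were seen, rose as well, so 3 of the 5 detected inhibitors did. Cdkn1c, also named after its values were seen, had a difference of 0.59 with overlap of the groups and was not called. Cdkn1a, the p53 target p21, read 26.3, 25.8, 26.2, 40.9 and 27.0 RPKM in X48 and 16.0, 27.2 and 19.9 in S48. The groups overlapped, and its difference of 0.48 (SE 0.68) had an adjusted p of 0.61. The SE is pooled over all groups, and Cdkn1a read 15.9 ± 20.3 RPKM (SD, n = 9) in resting liver.

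Genes of DNA replication and nucleotide supply rose almost as a whole: 51 of 57 detected members rose, with a list median of 1.52 as deposited and 1.23 at one median. Mcm5, a subunit of the replicative helicase, stood at 5.47, 10.4, 9.08, 9.59 and 10.5 RPKM in X48 and 0.365, 0.446 and 0.827 in S48 and rose by 3.55 (SE 0.39, adjusted p = 9.7e-12). Rrm2, the small subunit of ribonucleotide reductase, showed the largest rise of the list, from 0.922, 1.22 and 1.80 RPKM in S48 to 16.2, 30.0, 21.9, 27.7 and 28.1 in X48, a difference of 4.00 (SE 0.40, adjusted p = 5.8e-13). The members that did not pass were Orc1 (0.75), Orc3 (0.37), Orc4 (0.38), Orc5 (0.17) and Rfc1 (0.46). Orc1 was called higher as deposited but its difference at one median was 0.45, short of the threshold of 0.5. Its means were 0.189 RPKM in X48 and 0.00591 in S48, without overlap and below the 0.25 RPKM added before the logarithm. Orc2 (0.81) and Orc6 (1.11), of the same origin recognition complex, rose. Mcm10, singled out after its value was seen, was the member that fell, with a difference of -0.93 and an adjusted p of 0.017. Its 3 sham livers read 8.80, 3.18 and 3.28 RPKM and the X48 livers 1.46, 2.12, 2.36, 2.25 and 3.52, so the groups overlapped, and no member of the list fell without X48 replicate 1 or without S48 replicate 1.

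The mitotic genes moved furthest. Of 21 detected mitotic cyclins, kinases and regulators 20 rose, of 34 genes of the kinetochore, centromere and spindle checkpoint all 34 rose, and of 36 genes of the spindle, condensin, anaphase and cytokinesis 35 rose. Their median differences were 4.14, 3.48 and 4.29 on the log2 scale as deposited and 3.84, 3.19 and 4.00 at one median. Cyclin B1 (Ccnb1), the partner of CDK1 at the entry into mitosis, stood at 14.0, 14.4, 21.7, 29.7 and 18.4 RPKM in X48 and at 0.0345, 0.0544 and 0.0932 in S48. The mean went from 0.0607 ± 0.0298 (SD, n = 3) to 19.7 ± 6.45 RPKM (SD, n = 5), and the difference of 5.95 (SE 0.25, adjusted p = 2.5e-30) understates it, since the sham values lie below the 0.25 RPKM added before the logarithm. Cyclin B2 (Ccnb2) gave 24.8, 27.4, 38.1, 50.2 and 28.5 RPKM in X48 and 0.170, 0.119 and 0.215 in S48 and the largest rise of the kinases and cyclins, 6.31 (SE 0.34, adjusted p = 1.1e-25). Cyclin A2 (Ccna2), which acts in both S phase and early mitosis, gave 15.0, 21.2, 24.6, 30.9 and 19.8 RPKM against 0.108, 0.105 and 0.365 and rose by 5.68 (SE 0.29, adjusted p = 1.3e-26).

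The kinases rose with the cyclins. Cdk1, the mitotic cyclin-dependent kinase, stood at 21.4, 26.9, 33.3, 46.0 and 30.2 RPKM in X48 and 0.202, 0.346 and 0.396 in S48, a difference of 5.78 (SE 0.28, adjusted p = 4.4e-28). Plk1, which acts at centrosomes and kinetochores, stood at 16.6, 21.4, 26.4, 34.2 and 22.9 and 0.0528, 0.125 and 0.225 RPKM, a difference of 5.98 (SE 0.29, adjusted p = 6.3e-28). Foxm1, the transcription factor of late cell-cycle genes, was less abundant, at 5.02, 7.59, 6.89, 8.07 and 6.49 RPKM in X48 and 0.0581, 0.0834 and 0.0452 in S48, and rose by 4.48 (SE 0.19, adjusted p = 6.0e-30). In each of these genes the lowest X48 liver was far above the highest sham liver. The member of the list that was not called was Mybl2, also an activator of late cell-cycle genes and named after its values were seen, at 0.134, 0.112, 0.0889, 0.106 and 0.147 RPKM in X48 and 0.0565, 0.0396 and 0.0447 in S48. Every X48 liver was above every sham liver. All these values lie below the 0.25 RPKM added before the logarithm, which shrinks the difference, so the missing call does not show an unchanged level.

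At the kinetochore, Nuf2, a subunit of the NDC80 complex that holds microtubules, gave 9.65, 14.9, 15.5, 17.02 and 14.0 RPKM in X48 and 0.0454, 0.0716 and 0.145 in S48, the largest rise of its list (5.41, SE 0.27, adjusted p = 3.4e-27). For exit from mitosis, Cdc20, the activator of the anaphase-promoting complex (chr4:118105506-118109957 on mm9), gave 36.3, 54.0, 66.5, 94.7 and 46.2 RPKM against 0.124, 0.147 and 0.288, a difference of 7.04 (SE 0.38, adjusted p = 1.6e-25). Ube2c, the ubiquitin-conjugating enzyme of that complex, gave 22.0, 25.1, 35.7, 51.5 and 30.1 RPKM against 0.0670, 0.123 and 0.270 and rose by 6.32 (SE 0.32, adjusted p = 3.5e-27). Ckap2l, a spindle protein, gave 14.5, 17.4, 22.1, 26.5 and 19.9 RPKM against 0.0371, 0.117 and 0.145 and rose by 5.84 (SE 0.28, adjusted p = 2.3e-28). Mki67, the antigen used to count cycling cells, gave 13.1, 17.5, 18.4, 20.3 and 16.9 RPKM against 0.159, 0.164 and 0.304 and rose by 5.25 (SE 0.29, adjusted p = 4.0e-25). Pttg1, the securin that guards separase, was the exception among the spindle and anaphase genes, at 6.78, 7.89, 9.11, 9.51 and 8.82 RPKM in X48 and 7.53, 8.37 and 7.19 in S48, with overlap, and was named after its values were seen.

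**Figure D2:**
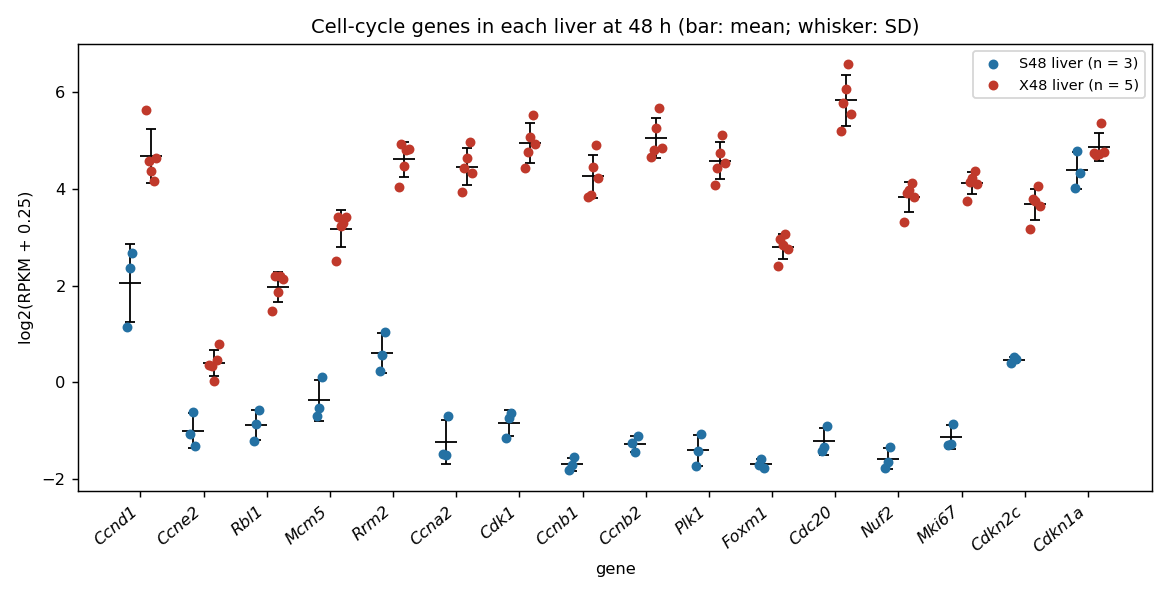
The y axis gives log2(RPKM + 0.25) of 16 cell-cycle genes along the x axis, with 1 point per liver, sham in blue (n = 3) and post-PH in red (n = 5), the horizontal bar at the mean and the whisker at 1 SD. The 2 groups are apart for every gene shown except Cdkn1a, and the sham livers sit near the floor set by the 0.25 RPKM for the mitotic genes.

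The 5 X48 livers were not alike in these genes. X48 replicate 1 had the lowest value of the 5 in all 36 detected spindle and anaphase genes, in 32 of 34 kinetochore genes, in 20 of 21 mitotic cyclins and kinases and in 54 of 57 replication genes. X48 replicate 4 had the highest value in 33, 25, 17 and 11 of these, and X48 replicate 5 had the highest in 29 of the 57 replication genes. The summed level of the spindle and anaphase genes was 303, 417, 499, 613 and 437 RPKM in replicates 1 to 5 and 15.9 to 17.7 RPKM in sham. Ccnd1 ran the other way, with its highest value (49.3 RPKM) in replicate 1 and its lowest (17.6 RPKM) in replicate 4. The library medians, 2.15 to 2.25 on the log2 scale in X48 and lowest in replicate 1, spanned less than these sums did. The livers are a description of 5 animals and no test was run between them.

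Genes of DNA repair and the damage checkpoint rose in 22 of 27 cases (median 2.06 as deposited, 1.77 at one median). Of 21 p53 target genes 8 rose and 1 fell, with a median of 0.48 as deposited and 0.19 at one median. The largest rise was that of Gtse1, which is also a spindle-associated G2 and S phase gene, at 4.57, 8.33, 8.05, 9.48 and 7.55 RPKM against 0.0523, 0.0660 and 0.149 (4.51, SE 0.22, adjusted p = 2.9e-27). Bbc3, which encodes the apoptosis promoter PUMA, fell by 0.89 (SE 0.30, adjusted p = 0.011), from 3.06, 2.65 and 3.89 RPKM in sham to 1.28, 1.62, 1.90, 1.42 and 1.78 after PH. Without S48 replicate 3 its adjusted p was 0.072 and no member fell, and 2 fell without S48 replicate 2.

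Few genes of the growth machinery were called. Of 31 genes of ribosome biogenesis 2 rose, Nop58 (0.89) and Nhp2, a protein of box H/ACA ribonucleoproteins, which stood at 16.0, 18.8, 20.4, 22.9 and 19.9 RPKM in X48 and 8.92, 9.32 and 9.30 in S48 (1.07, SE 0.14, adjusted p = 1.9e-09). A single one of the pair was left without X48 replicate 4 or 5 or S48 replicate 1 or 2. None of 78 cytosolic ribosomal protein genes and none of 31 proteasome genes rose or fell by the rule. As deposited, limma called 4 and 7 of them higher, and 46 and 30 were higher at an unadjusted p under 0.05. Of all 15396 detected genes 7841 reached that p in either direction. Their medians were 0.26 and 0.39 as deposited and -0.03 and 0.10 at one median, near those of all genes (0.27 and -0.02). The cytoskeleton list stood out from these, with 12 of 21 members higher and a median of 1.13 as deposited and 0.84 at one median. Tubb6, a beta-tubulin, rose from 1.47, 2.31 and 3.67 RPKM in S48 to 51.7, 54.3, 61.9, 75.9 and 62.5 in X48 (4.56, SE 0.36, adjusted p = 2.1e-17), and the near-identical copies Tuba1a (2.28), Tuba1b (2.65) and Tuba1c (2.24) may share reads.

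Among genes with a mean above 1 RPKM in a group and no overlap of livers, the deepest falls were those of Scd1 and Scd3. As lists, the growth hormone axis (median -0.59 as deposited) and the periportal genes (-0.58) lay below fatty acid synthesis. Of 19 genes of fatty acid synthesis 7 fell and none rose, beside 2.69% and 9.53% of all detected genes, and the median was -0.53 as deposited and -0.83 at one median. Scd1, the stearoyl-CoA desaturase that makes monounsaturated fatty acids (chr19:44468941-44482199 on mm9), stood at 45.2, 166, 63.1, 176 and 36.9 RPKM in X48 and at 1670.3, 1498 and 2223 in S48. The lowest sham liver was above the highest X48 liver by far, and the mean went from 1797 ± 379 (SD, n = 3) to 97.5 ± 68.0 RPKM (SD, n = 5), a log2 difference of -4.48 (SE 0.52, adjusted p = 7.1e-11). Its neighbor on chromosome 19, Scd3, which is not in the list, fell by 3.99 (SE 0.55, adjusted p = 1.6e-08), from 19.4, 16.2 and 24.5 to 0.551, 1.98, 0.745, 2.24 and 0.457 RPKM, and Scd2, a member of this list and of that of genes high in fetal liver, fell by 1.39 (SE 0.41, adjusted p = 0.0042). These desaturases are close copies and may share reads. In X48 replicates 2 and 4 Scd1 and Scd3 were higher than in the other 3 livers. The other 5 members that fell were Thrsp (-2.41), Acss2 (-1.75), Acacb (-1.69), Acly (-1.01) and Elovl5 (-0.71), and 5 members fell when S48 replicate 3 was left out.

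In sugar metabolism 5 of 30 genes fell (16.7%) and 1 rose (3.33%). Ppp1r3b, which targets phosphatase to glycogen, fell by 1.18 (SE 0.32, adjusted p = 0.0017), from 45.0, 78.2 and 45.0 RPKM in sham to 26.1, 24.4, 22.0, 25.9 and 20.6. Among the others were G6pdx (-1.16), Pklr (-1.06), the pyruvate kinase of liver, and Slc37a4 (-0.50). Ldha, the lactate dehydrogenase subunit of glycolytic tissue, rose from 257, 369 and 235 RPKM in S48 to 599, 497, 519, 514 and 531 in X48 (0.92, SE 0.17, adjusted p = 6.8e-06). The falls were 3 without X48 replicate 5, S48 replicate 2 or S48 replicate 3, and Ldha was no longer called under both scalings without S48 replicate 3.

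For cholesterol, 1 of 23 genes rose (4.35%) and 2 fell (8.70%). Insig1, which retains the SREBP complex, fell by 1.16 (SE 0.42, adjusted p = 0.019), from 117, 128 and 113 to 46.9, 55.9, 55.7, 56.5 and 51.5 RPKM, and its adjusted p was 0.051 without S48 replicate 1 and 0.059 without S48 replicate 2. The SE is pooled over all groups, and the SD of Insig1 was 4.08 RPKM in X48, 7.56 in S48 and 40.4 in X20. Tm7sf2 (-0.83) fell as well. Fatty acid oxidation and ketogenesis held 3 genes that rose (8.82%) and 2 that fell (5.88%) of 34. Acot2, a mitochondrial acyl-CoA thioesterase, rose from 0.767, 0.804 and 0.900 RPKM in S48 to 6.35, 1.54, 6.30, 2.44 and 6.02 in X48 (1.97, SE 0.46, adjusted p = 3.9e-04), with Acot1 (1.90), a near copy, and the fatty acid transporter Cd36 (1.22). Acaa1b, a peroxisomal thiolase, fell by 0.83 (SE 0.27, adjusted p = 0.008), and so did Acsl1 (-0.82).

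Rises among drug-metabolizing genes were no more frequent than among all detected genes, and falls were more frequent. Of 56 detected cytochrome P450 genes of families 1 to 4, 13 fell (23.2%) and 4 rose (7.14%), beside 2.69% and 9.53% of all detected genes. The median was -0.32 as deposited and -0.61 at one median, and 8 fell when S48 replicate 1 was left out. The rises were led by the Cyp4a family, the PPARα-driven fatty acid hydroxylases: Cyp4a14 stood at 256, 225, 440.2, 183 and 274 RPKM in X48 and 13.1, 31.9 and 52.4 in S48 (3.22, SE 0.82, adjusted p = 9.2e-04), Cyp4a31 at 2.62 and Cyp4a10 at 2.29 on the log2 scale, all 3 being close copies. Cyp4b1 was the deepest fall, -1.30 (SE 0.23, adjusted p = 3.0e-06), at 0.973, 0.880, 0.673, 0.893 and 1.52 RPKM against 2.97, 2.80 and 2.45. Cyp2e1, the abundant ethanol-oxidizing enzyme, went from 2430.4, 2354 and 1990.2 RPKM in sham to 1196, 1334, 1673, 1091 and 1078 after PH and fell by 0.84 (SE 0.21, adjusted p = 8.4e-04). After quantile normalization the Cyp2e1 difference was -0.38 and was not called.

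Among 45 conjugating enzymes 3 rose (6.67%) and 4 fell (8.89%). The rises were 1 without S48 replicate 1 or 2 and 5 without X48 replicate 1. The largest rise of those eligible by the rule was Gstm2, a glutathione transferase (1.29, SE 0.31, adjusted p = 4.7e-04), from 28.4, 30.7 and 49.1 RPKM to 75.6, 83.9, 82.5, 113 and 78.6. The deepest fall was Ugt1a5, a glucuronosyltransferase of the shared Ugt1a locus (-1.24, SE 0.42, adjusted p = 0.013), whose adjusted p was 0.088 without S48 replicate 3. Of 28 genes of bile acid synthesis and transport 4 fell and none rose. Abcg8, a subunit of the canalicular sterol exporter, fell by 1.08 (SE 0.25, adjusted p = 3.0e-04), from 12.9, 9.93 and 9.43 RPKM to 5.44, 5.49, 4.95, 4.71 and 4.15, together with its partner Abcg5 (-0.69), Slc27a5 (-0.98) and Cyp27a1 (-0.91). Cyp7a1, the rate-limiting enzyme of bile acid synthesis, read 8.97, 11.3, 24.0, 13.4 and 6.37 RPKM in X48 and 11.9, 15.4 and 17.8 in S48, the X48 livers lying on both sides of the sham livers, with a difference of -0.35 (SE 0.62, adjusted p = 0.69).

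In amino acid breakdown 14 of 45 detected genes fell and 2 rose, with a median of -0.31 as deposited and -0.60 at one median. Hal, which opens the breakdown of histidine, fell most (-1.24, SE 0.23, adjusted p = 1.3e-05), from 69.5, 80.3 and 65.0 RPKM in S48 to 29.8, 42.2, 31.4, 26.7 and 22.8 in X48. Tat, the tyrosine aminotransferase, fell by 1.01 (SE 0.37, adjusted p = 0.021), from 987, 1190.1 and 679.7 to 455, 395, 353, 553 and 592 RPKM, and lost its call without S48 replicate 1 (adjusted p = 0.070) and without S48 replicate 2 (0.11). The urea cycle genes Ass1 (-0.61), Asl (-0.63) and Otc (-0.60) were among those that fell. Cps1, the entry enzyme of the urea cycle, read 414, 516, 465, 479.7 and 475 RPKM in X48 and 716, 504 and 696 in S48, with overlap, a difference of -0.43 (SE 0.21, adjusted p = 0.085) as deposited and -0.72 (adjusted p = 0.0049) at one median, so that its call rests on the scaling. Oat, ornithine aminotransferase, ran against the list and rose from 232, 164 and 154 RPKM to 441, 393, 745, 452 and 429 (1.41, SE 0.27, adjusted p = 1.6e-05), and so did Nags (0.91). Without S48 replicate 1 a single member of the list rose.

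These falls touch the zonation of the lobule, in which periportal hepatocytes carry urea synthesis and amino acid use and pericentral ones drug metabolism and glutamine synthesis. Of 14 periportal genes 6 fell and none rose (median -0.58 as deposited, -0.87 at one median): Hal, Gls2 (-0.84), Sds (-0.78), Cyp2f2 (-0.65), Ass1 and Ctsc (-0.61). Of 18 pericentral genes 3 rose (16.7%), Oat, Lect2 (1.01) and Lgr5 (0.92), and 2 fell (11.1%), Cyp2e1 and Cyp2c37 (-0.77). The median of the pericentral genes was 0.48 as deposited and 0.19 at one median. Their rises were 5 without X48 replicate 4, and 1 fell when X48 replicate 1 or 4 or any sham liver was left out. No test was run between the zones. The periportal count was 4 without X48 replicate 3 or 4 or without any sham liver.

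**Figure D3:**
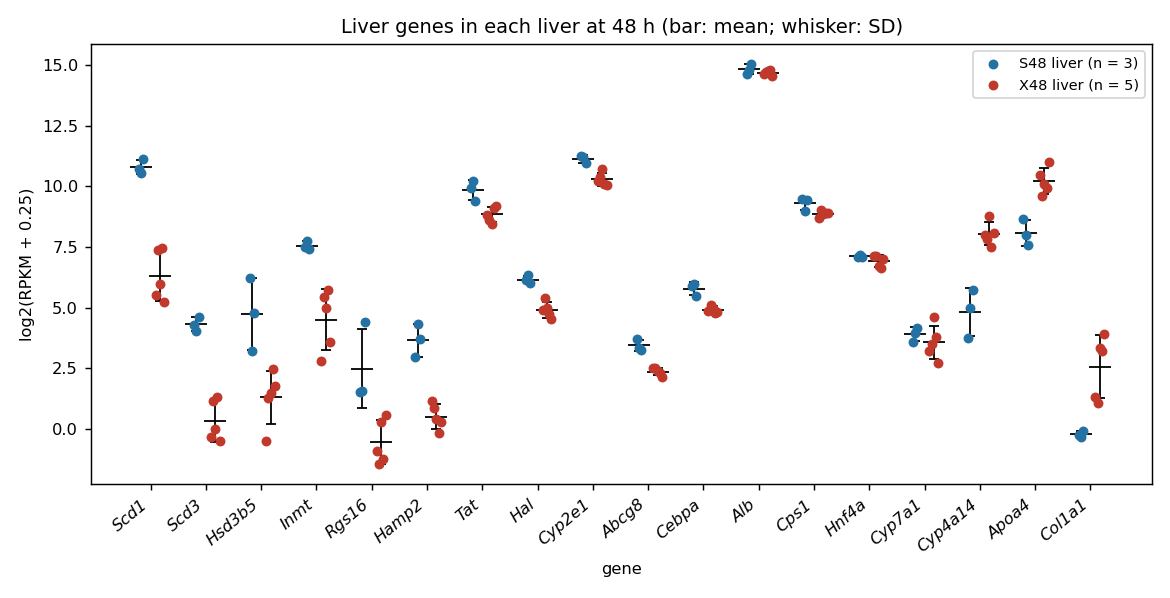
The y axis gives log2(RPKM + 0.25) of 17 genes of liver function and of Col1a1 along the x axis, drawn as for the cell-cycle genes, with sham livers in blue (n = 3) and post-PH livers in red (n = 5), mean and SD. Scd1 to Cebpa fell with no overlap of the livers, Alb, Cps1, Hnf4a and Cyp7a1 overlapped, and Cyp4a14, Apoa4 and Col1a1 rose.

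Among secreted proteins of the hepatocyte, albumin (Alb) read 25499.5, 27216, 27338, 28325 and 23952 RPKM in X48 and 25524, 28745 and 33802 in S48, overlapping, with a difference of -0.14 (SE 0.18, adjusted p = 0.56). Of 41 coagulation and complement genes 7 fell and none rose, Klkb1 (plasma prekallikrein) most (-0.89, SE 0.18, adjusted p = 3.9e-05), from 3.66, 4.63 and 4.07 RPKM to 2.16, 2.61, 2.16, 1.83 and 1.83. Of 18 apolipoprotein and lipoprotein genes 7 fell and 2 rose. Apoa4, the apolipoprotein of triglyceride-rich particles, rose from 408, 253 and 194 RPKM in S48 to 1406, 773, 1092, 987 and 2058 in X48 (2.13, SE 0.44, adjusted p = 5.3e-05), and Apoc2, the lipoprotein lipase cofactor, rose by 1.32. Pltp, the phospholipid transfer protein, fell by 1.31 (SE 0.38, adjusted p = 0.0036).

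Acute-phase genes were given beside resting liver. Saa1, serum amyloid A, read 7138, 3751, 3006, 3585 and 5517 RPKM in X48 and 11351, 9886 and 6261 in S48, beside a mean of 121 ± 180.0 RPKM (SD, n = 9) in resting liver, and the groups overlapped. Its difference of -1.02 (SE 0.66) had an adjusted p of 0.21. Saa1 and Saa2 are near copies that may share reads. Serpina3n, an inhibitor of proteases, rose from 666, 859 and 854 RPKM in sham to 1966, 1477, 1434, 1125 and 1741 after PH (0.95, SE 0.25, adjusted p = 0.0012), with 119 ± 26.4 RPKM (SD, n = 9) at rest. Its call at one median was lost when any single liver other than X48 replicate 4 was left out. Of 30 genes of the list 1 rose and 3 fell. Hamp2, a hepcidin gene, fell deepest (-3.15, SE 0.50, adjusted p = 3.8e-07), from 7.57, 19.9 and 12.7 to 1.97, 1.57, 1.07, 0.649 and 0.985 RPKM, with Hamp (-1.65), which encodes the regulator of iron export, and Saa4 (-0.94), and 1 of the 3 was left without S48 replicate 2. The erythroid marker Alas2, the first enzyme of heme synthesis in red cell precursors, fell by 1.22 (SE 0.25, adjusted p = 4.3e-05), whereas the other 4 detected erythroid markers, all globin genes, gave differences from -0.36 (Hba-a1) to -0.45 (Hbb-b1) that were not called, and the erythroid sum was 29.5 to 66.2 RPKM in X48 and 41.0 to 89.2 in S48.

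Signals that act on the hepatocyte were measured as ligands, receptors and targets. In the growth hormone axis, which drives male-biased genes of mouse liver, 9 of 23 genes fell and 1 rose, with a median of -0.59 as deposited and -0.89 at one median, and 5 fell without S48 replicate 1. The receptor Ghr (-0.88) and the target Socs2 (-1.69) were among those that fell. Hsd3b5, a male-specific steroid enzyme, fell deepest (-3.44, SE 0.79, adjusted p = 2.9e-04), from 73.6, 9.09 and 27.5 RPKM in S48 to 0.456, 2.20, 2.58, 5.33 and 3.13 in X48, where the sham livers themselves spread widely. Mup20 (-1.21) and Mup3 (-1.18), urinary proteins, belong to a family of near-identical copies that may share reads. Igfbp2, an IGF-binding protein, rose from 102, 87.8 and 111 RPKM to 144, 298, 219.6, 226 and 155 (1.01, SE 0.26, adjusted p = 0.0011), while Igfbp1, a binding protein of fasting and injury, read 171, 31.0, 182, 53.7 and 395 RPKM in X48 and 345, 196 and 331 in S48 (difference -1.29, SE 0.63, adjusted p = 0.091). The mean of Igfbp2 was 209 RPKM in X48, 100.1 in S48 and 181 ± 51.8 (SD, n = 9) in resting liver. The resting livers were not alike: replicates 4 to 6 read 113, 121 and 124 RPKM and the others 155 to 231. Which group lay further from rest thus depends on the resting livers used. For Igfbp1, 4 of the 5 X48 livers lay below every sham liver and replicate 5 above all of them. Without X48 replicate 5, Igfbp1 was called lower (-1.73), and Igfbp2 was no longer called under both scalings without X48 replicate 2, 3 or 4 or S48 replicate 1 or 2.

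Of 16 detected growth factor ligands and receptors 2 rose and 1 fell. Hgf, the hepatocyte growth factor made by non-parenchymal cells, rose from 1.01, 1.11 and 0.945 RPKM to 2.63, 2.52, 3.10, 1.30 and 3.54 (1.11, SE 0.25, adjusted p = 2.6e-04), and Tgfa, a ligand of the EGF receptor, rose by 0.81. A single one of these was left without X48 replicate 1 or 5 or S48 replicate 1. Hgfac, the protease that activates HGF, fell by 0.70 (SE 0.16, adjusted p = 2.8e-04), from 64.0, 69.3 and 64.9 to 44.7, 41.4, 46.5, 32.1 and 39.9 RPKM, and 2 members fell without S48 replicate 2. In the TGF-beta, activin and BMP list 1 of 27 rose, Fstl1, a follistatin-like secreted protein (1.18, SE 0.26, adjusted p = 1.7e-04), which was not called under both scalings without S48 replicate 1, and 1 fell, Bmp2 (-0.61, SE 0.21, adjusted p = 0.016), whose adjusted p was 0.070 without S48 replicate 2.

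Genes of hepatocyte identity were mostly not called. Of 23 detected hepatocyte transcription factors 1 fell, Cebpa, which opposes proliferation in hepatocytes, from 58.5, 63.4 and 44.0 RPKM in S48 to 28.5, 34.5, 31.8, 27.4 and 28.1 in X48 (-0.86, SE 0.19, adjusted p = 1.2e-04). Hnf4a, the master regulator of hepatocyte genes, read 140.2, 141, 104, 98.1 and 129.9 RPKM in X48 and 135, 146 and 135 in S48 and overlapped (-0.19, SE 0.18, adjusted p = 0.42). Of 18 fetal and progenitor genes 1 rose and 1 fell. The one that rose was Afp, alpha-fetoprotein of the fetal liver, at 0.664, 0.702, 1.15, 1.25 and 1.02 RPKM in X48 and 0.0975, 0.0660 and 0.555 in S48 (1.41, SE 0.33, adjusted p = 4.0e-04). None rose without S48 replicate 1 or 2. Scd2 was the one that fell.

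The clock genes were compared at a shared ZT2. Arntl, which encodes BMAL1, read 8.29, 9.41, 10.4, 10.4 and 9.07 RPKM in X48 and 8.11, 7.26 and 9.03 in S48, with overlap, and its difference was 0.22 (SE 0.21, adjusted p = 0.41) as deposited and -0.07 at one median. Nr1d1, which encodes REV-ERBα, read 2.49, 1.36, 1.88, 1.46 and 5.91 and 1.09, 1.16 and 2.55 RPKM (0.53, SE 0.57, adjusted p = 0.48), overlapping and highest in X48 replicate 5. Of 18 genes 2 fell, among them Bhlhe40 (-0.72), a repressor of clock output. None fell without S48 replicate 1, and a single one fell without X48 replicate 1 or 3 or S48 replicate 2 or 3.

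Stress genes were examined in 3 lists. Of 16 genes of the unfolded protein response 1 fell, Chac1, a glutathione-degrading target of ATF4 (-1.55, SE 0.43, adjusted p = 0.0026). Its mean was 1.42 RPKM in X48, 4.68 in S48 and 1.71 ± 0.996 (SD, n = 9) in resting liver, so sham was the group further from rest. None of the 16 rose by the rule, while 5 were called higher by limma as deposited and 8 were higher at an unadjusted p under 0.05. That p was reached in either direction by 7841 of the 15396 detected genes. Without X48 replicate 3, 2 of them rose, and without S48 replicate 2, 3 did. Of 12 heat shock genes Hspa4l (1.00) and Hsp90aa1 (1.19, SE 0.33, adjusted p = 0.0025) rose, the latter from 44.3, 81.7 and 47.3 RPKM to 101, 119.7, 129, 164 and 130.1, and neither passed under both scalings without S48 replicate 3, nor did one of them without X48 replicate 4 or S48 replicate 1. Of 15 NRF2 and antioxidant genes 3 rose (20.0%) and 1 fell (6.67%), and 5 rose without X48 replicate 1 or S48 replicate 3. Nqo1, a quinone reductase and NRF2 target, rose from 1.64, 2.21 and 2.47 RPKM in S48 to 5.75, 7.73, 12.1, 11.4 and 6.30 in X48 (1.87, SE 0.26, adjusted p = 1.5e-08), with Srxn1 (1.34) and Gsr (0.80). Cat, the peroxisomal catalase, fell by 0.69 (SE 0.14, adjusted p = 3.9e-05), from 723, 709 and 722 to 356, 500.0, 525, 454 and 411 RPKM.

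**Figure D4:**
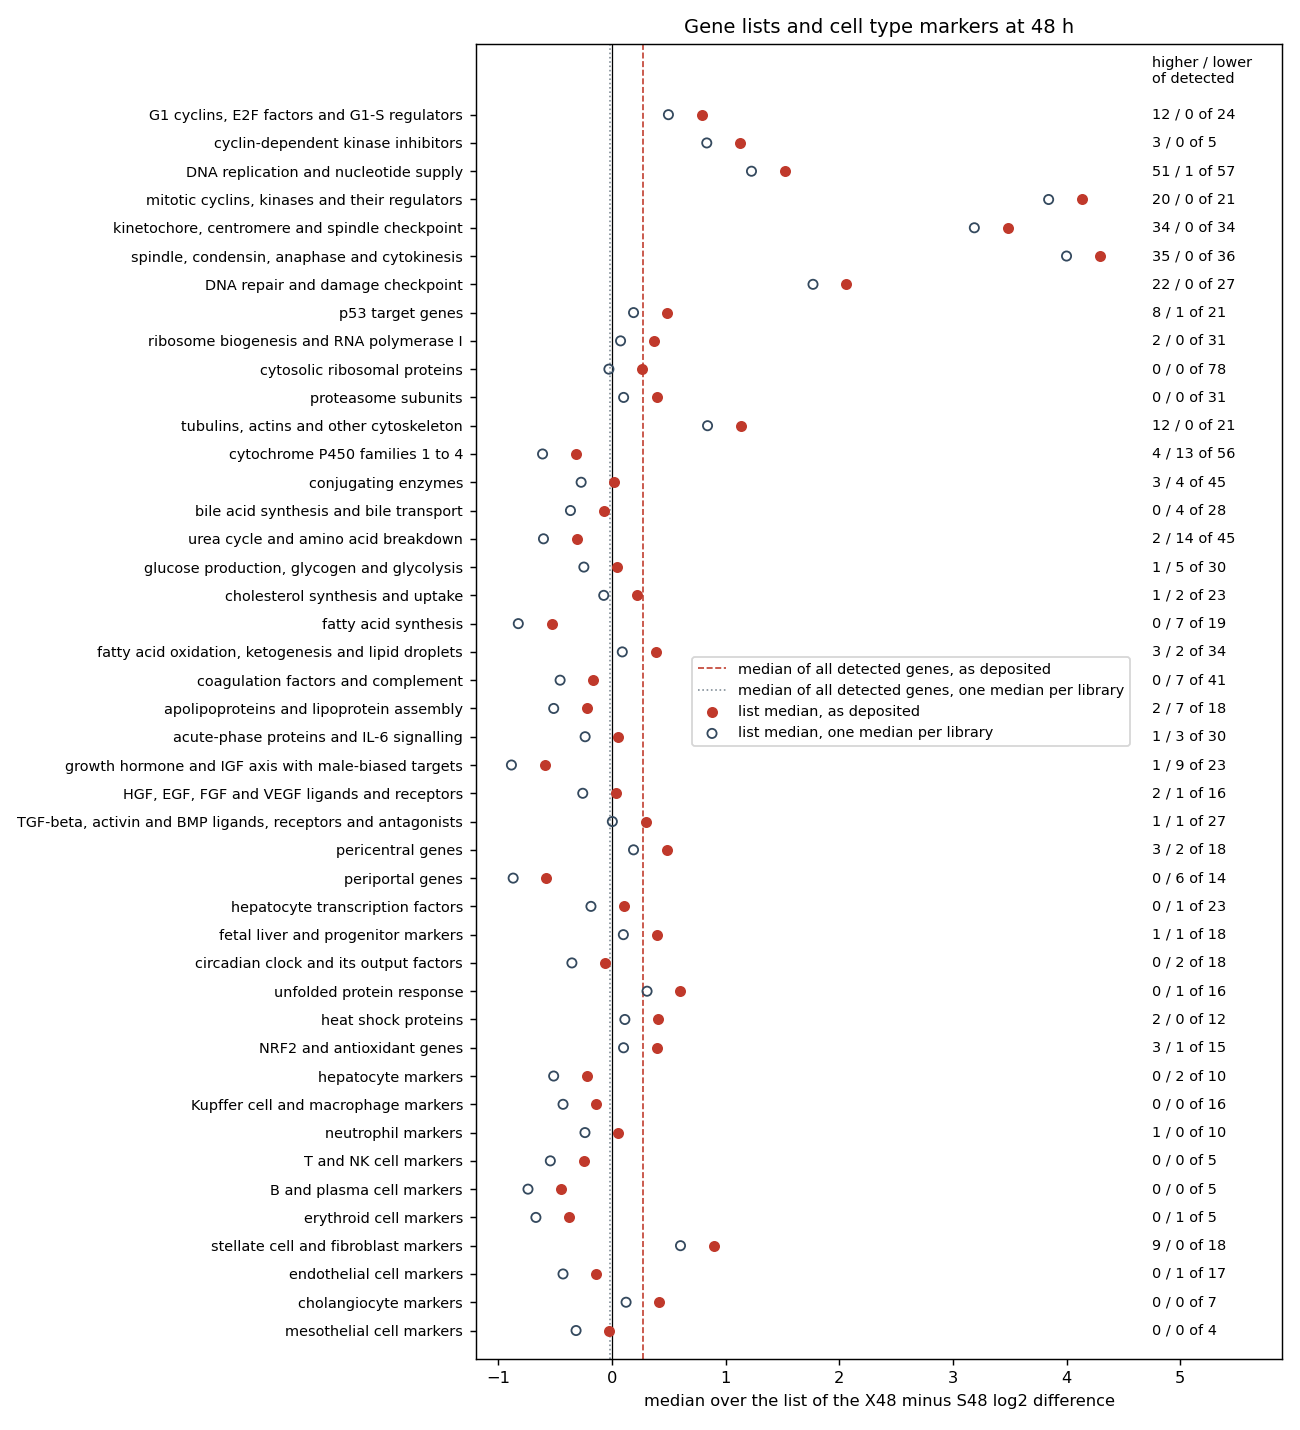
For each gene list and marker list with at least 4 detected genes, on the y axis, the x axis gives the median log2 difference X48 minus S48, filled as deposited and open at one median per library, with vertical lines at the medians of all detected genes (0.27 and -0.02). The numbers at the right are the genes that rose and fell under both scalings out of those detected. The mitotic, kinetochore and spindle lists lie at 3.48 to 4.29 and the growth hormone, periportal and fatty acid synthesis lists lowest.

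Beyond the lists, 4 of the 8 largest falls were genes of other roles. Inmt, an amine methyltransferase, fell by 3.05 (SE 0.55, adjusted p = 5.7e-06), from 181, 216 and 169.6 RPKM in S48 to 6.71, 43.3, 31.9, 52.3 and 11.7 in X48. Rgs16, a regulator of G protein signalling, fell by 3.03 (SE 0.73, adjusted p = 5.0e-04), with 0.286, 0.121, 0.976, 0.176 and 1.24 RPKM in X48 and 2.62, 2.72 and 20.7 in S48, where 1 sham liver stood far above the other 2. Gm4956 fell by 3.28 (SE 0.32, adjusted p = 2.0e-13), from 11.8, 3.61 and 3.29 to 0.196, 0.504, 0.276, 0.550 and 0.149 RPKM, and the pseudogene Serpina4-ps1 fell by 3.36 (SE 0.73, adjusted p = 1.4e-04), from 124, 26.3 and 43.7 to 2.71, 8.15, 2.21, 4.77 and 11.3 RPKM. The others were Scd1, Scd3, Hsd3b5 and Hamp2.

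The identity of the tissue and the other cells in it were examined with marker lists. All 10 hepatocyte markers were detected, at a summed 40686 to 44414 RPKM in X48 and 44973 to 54536 in S48, and 2 of them fell, Tat and Ttr (-0.68), of which 1 was left without S48 replicate 1. Of 18 stellate cell and fibroblast markers 9 rose and none fell (median 0.89 as deposited, 0.60 at one median). Their sum was 94.3 to 174 RPKM in X48 and 69.1 to 76.8 in S48. Col1a1, the chain of type I collagen, rose most, at 2.22, 1.87, 9.73, 9.15 and 14.8 RPKM against 0.588, 0.545 and 0.705 (2.79, SE 0.48, adjusted p = 2.4e-06), with Col3a1 (2.17), Timp1 (1.91), Acta2 (1.85) and Col1a2 (1.83) among the others, Acta2 with overlap of the groups. In contrast, Lrat (0.36), Reln (0.33) and Dcn (0.40), which mark the same cells, were not called. The count was 5 without X48 replicate 5, without S48 replicate 1 or without S48 replicate 2.

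Leukocyte markers were low or not called. Of 16 Kupffer cell and macrophage markers none rose or fell in limma under both scalings, while 1 was higher at an unadjusted p under 0.05, with sums of 72.9 to 152 RPKM in X48 and 87.3 to 130 in S48. Clec4f, particular to Kupffer cells, read 6.97, 8.62, 6.66, 4.83 and 7.21 and 8.86, 8.14 and 9.35 RPKM, with overlap (-0.37, SE 0.47, adjusted p = 0.57). Of 10 detected neutrophil markers 1 rose, Elane (1.21), which stayed below 1 RPKM in every liver, and the sums were 2.36 to 8.82 in X48 and 3.62 to 7.23 in S48. Elane was not called under both scalings without S48 replicate 3. The 5 detected T and NK cell markers (of 10) summed to below 1 RPKM in each of the 8 livers and the 5 B and plasma cell markers to at most 1.31. None of these 10 rose or fell in limma as deposited, 2 and 3 were lower at an unadjusted p under 0.05, and 2 and 4 were called lower at one median. Of 17 endothelial markers 1 fell, Oit3 (-0.74, SE 0.27, adjusted p = 0.019), with sums of 33.4 to 42.8 RPKM in X48 and 43.9 to 50.1 in S48, and its adjusted p was 0.055 without S48 replicate 1 and 0.053 without S48 replicate 3. None of 7 cholangiocyte markers rose or fell in limma under both scalings, with 4 higher at an unadjusted p under 0.05 and sums of 35.9 to 48.5 RPKM in X48 and 22.9 to 33.2 in S48. None of 4 mesothelial markers rose, fell or reached an unadjusted p under 0.05. Over all 15396 detected genes 7841 reached that p in either direction. No pancreas acinar marker of 9 was detected, and of 6 skeletal muscle markers 1 was. The part of these cells in the results above was not tested.

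Finally, the PH to sham difference at 48 h was compared with that at 20 h, when X20 and S20 share no library with X48 and S48 but were taken at another time of day. By the paper, X48 and S48 came from the same experimental series, S20 from a different series and X20 from both. A change between the times thus cannot be told apart from a difference between the series. The difference at 48 h was higher for 875 genes (5.68%) and lower for 100 (0.65%), called both as deposited and at one median. Among the mitotic cyclins and kinases it was higher for 19 of 21, among kinetochore genes for 33 of 34 and among spindle genes for 34 of 36. In the last of these lists the median difference was 0.31 at 20 h and 4.29 at 48 h. Ccnb1 read 0.0594 ± 0.0627 RPKM in X20 and 0.0198 ± 0.0111 in S20 (mean ± SD), and the change of the difference was 5.77 (SE 0.34, adjusted p = 4.0e-21). In the replication list 29 of 57 genes were called in this test, and the median of the list was 0.44 at 20 h. Ccne2 and Mcm5 passed it only as deposited, and Ccnd1 under neither scaling. At 20 h the means of Ccnd1, Ccne2 and Mcm5 were 12.9, 0.462 and 2.41 RPKM in X20 and 1.98, 0.267 and 0.410 in S20.

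Some lists of liver genes gave calls mainly in the other direction. Of 45 genes of amino acid breakdown 10 had a lower difference at 48 h than at 20 h, as did 4 of 41 coagulation and complement genes and 4 of the 10 hepatocyte markers. Other lists of liver genes did not: of 56 cytochrome P450 genes 2 had a higher and 1 a lower difference. The lists of conjugating enzymes, bile acid, cholesterol and fatty acid oxidation genes gave no limma call under both scalings, with 10, 8, 10 and 2 genes at an unadjusted p under 0.05. Scd1 had means of 382 RPKM in X20 and 464 in S20, and its difference went from -0.29 at 20 h to -4.48 at 48 h (-4.20, SE 0.72, adjusted p = 7.7e-06). Both means at 20 h lay below that of resting liver, 1732 ± 611 RPKM (SD, n = 9). At 48 h the Scd1 mean was 1797 RPKM in S48 and 97.5 in X48, so both surgeries gave other levels than at 20 h. Time of day and, in part, the series differed between these groups too, as said above. Igfbp1, with a higher mean after PH at 20 h (160 ± 204 against 17.2 ± 7.63 RPKM, mean ± SD), gave -3.93 (SE 0.88, adjusted p = 7.2e-04). The X20 livers thus spread widely for this gene. The X20 livers came from more than one round of surgery, and with X20 replicates 1 to 3 alone 1334 genes were called as deposited, with replicates 4 to 6 alone 2630, against 2032 with all 6.

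**Figure D5:**
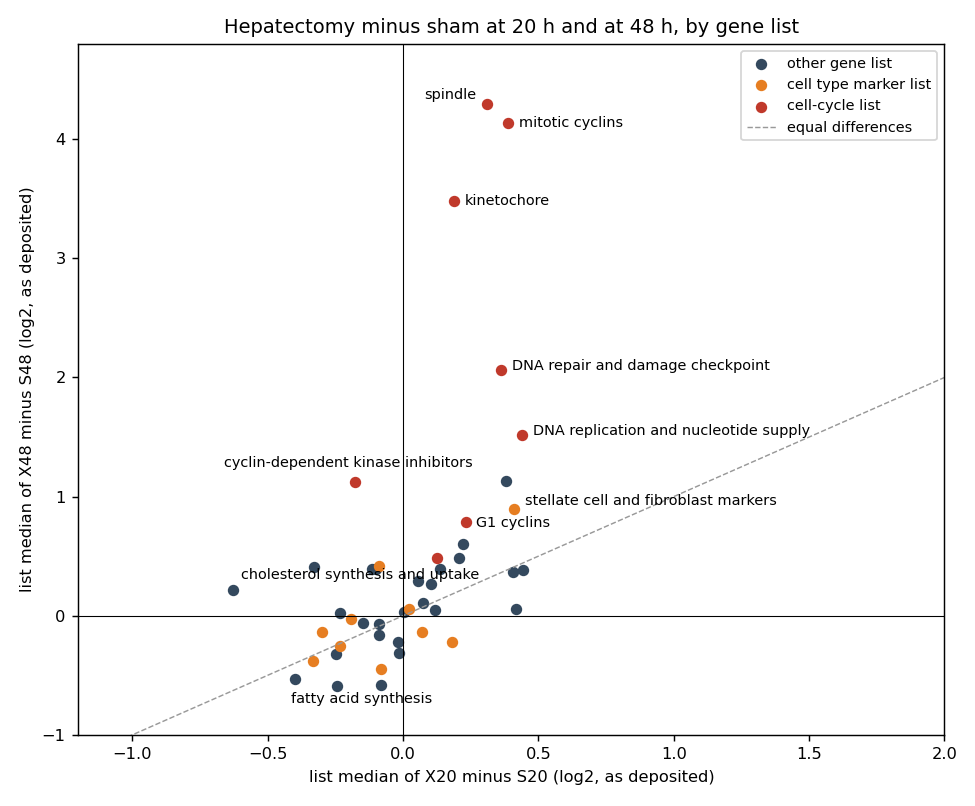
Each point is a gene list or marker list with at least 4 detected genes, with its median log2 difference X20 minus S20 on the x axis and X48 minus S48 on the y axis, both as deposited, and the dashed line marks equal differences. The mitotic, kinetochore and spindle lists (red) lie at 0.19 to 0.39 at 20 h and at 3.48 to 4.29 at 48 h, while most other lists lie near the line.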

How the data were processed

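Poly(A) RNA of individual livers was sequenced as stranded single-end reads of 100 nt. Per the labels and the methods of the study, the authors trimmed and filtered the reads, aligned them with TopHat2 2.0.13 to mm9, counted reads on the transcribed strand per Ensembl gene with multi-mapped reads split among their places, and deposited log2 RPKM values with undetected genes at a fixed minimum. No spike-in was used, so all levels are relative to the library. The deposited values carry no depth. It was estimated from the steps of low values as 20.9 to 38.7 M reads in X48 and 21.8 to 34.4 M in S48, with 73.4 to 75.9% of low values within 0.05 of a whole read, so no count test was run. The detection threshold (log2 RPKM above -1.5) equals 14.8 to 27.4 reads on a transcript of 2 kb.

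The tests ran on log2(RPKM + 0.25) in limma 3.58.1 under R 4.3.3 (all 19 groups and 80 libraries, variance trend, Benjamini-Hochberg over 15396 genes), as deposited and after shifting each library to one median of its own detected genes. The fit was tested on simulated data. Tables and plots used Python 3.11.15, numpy 2.4.6, pandas 2.3.3 and matplotlib 3.10.9. P-values measure the spread between livers within groups, pooled over all 19 groups and not over X48 and S48 alone. By the paper, C0 and X20 held livers of different experimental series. Genes were named as fixed anchors, as the 8 largest rises and falls, and as the largest rise and fall of each list, among genes called under both scalings, with a mean log2 RPKM above 0 in X48 or S48 and without overlap of the groups, and exceptions are said to have been chosen after their values were seen. A few genes that the rule names or the counts hold are not reported here. Members and lists were chosen with earlier results of these data known. Of the value columns 4 matched no labelled sample and were not used, and 7 labelled samples were not analysed here. Alternatives were other pseudocounts, filters, scalings, thresholds, subsets of libraries and a replicate block.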

Additional observations from a re-analysis of the deposited data

Results flagged for a closer look

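In 4 genes 1 of the 5 X48 livers stood apart from the others, its gap to the nearest liver divided by the range of the group being above Dixon's critical value of 0.71 for 5 samples. Cdkn1a read 40.9 RPKM in X48 replicate 4 and 25.8 to 27.0 in the others. Gstm2 read 113 RPKM in X48 replicate 4 and 75.6 to 83.9 in the others. Mcm5 read 5.47 RPKM in X48 replicate 1 and 9.08 to 10.5 in the others, and Oat read 745 RPKM in X48 replicate 3 and 393 to 452 in the others. Chance alone marks about 5% of groups at this critical value, and 73 genes were examined.

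In 28 of 73 named genes the PH to sham difference at 48 h itself differed from that at 20 h by the interaction term of the limma fit across all genes. Among all detected genes it was higher at 48 h for 5.68% and lower for 0.65%. Many of the named genes were chosen by their difference at 48 h, which is part of this term, so the choice itself favours calls among them. It was higher at 48 h, on the log2 scale, for Ccnb2 (6.15), Cdc20 (6.42), Ube2c (5.97), Ccnb1 (5.77), Plk1 (5.71), D17H6S56E-5 (5.43), Ckap2l (5.29), Cdk1 (4.93), Ccna2 (4.87), Nuf2 (4.82), Mki67 (4.62), Foxm1 (4.07), Gtse1 (4.02), Tubb6 (3.54), Cdkn2c (3.14), Rrm2 (2.83), Nqo1 (2.56), Col1a1 (2.38), Rbl1 (2.15) and Igfbp2 (1.51). It was lower at 48 h for Scd1 (-4.20), Igfbp1 (-3.93), Scd3 (-3.89), Rgs16 (-3.47), Hamp2 (-3.42), Tat (-1.51), Cps1 (-1.28) and Bmp2 (-0.87).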

How the results depend on the processing

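The count of genes called as deposited (4187) was 2762 with a pseudocount of 1, 2648 at one median, 2675 at one upper quartile, 2473 after quantile normalization, 1158 with a log2 threshold of 1 and, in a setting chosen after seeing the data, 2689 after centring on the median difference from the mean library. Leaving out 1 library gave 3589 to 4335. At one median the 2648 calls became 889 with a log2 threshold of 1 and 2171 to 2688 without 1 library. The 2032 genes whose difference at 48 h departed from that at 20 h became 1189, 1251, 1208 and 1218 under the same scalings in that order, and 1334 and 2630 with X20 replicates 4 to 6 or 1 to 3 left out, and 1391 to 2155 without 1 library. The 327 called members of the gene lists were 210 with a log2 threshold of 1 and 284 to 332 without 1 library.

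Equal replicate numbers did not pair the livers: the correlation of same-numbered deviations was -0.0215, 0.0277 and 0.0739, and not every liver was closest to its own number. With a replicate block 2472 genes were called as deposited and 1612 at one median. Arntl turned from 0.22 to -0.0716 at one median, -0.0187 at one upper quartile, -0.15 after quantile normalization, -0.0681 after centring on the median difference and -0.23 with one median over the same genes, also chosen after seeing the data. Of 76 named genes 42 kept their direction and side of the threshold in every setting. The cause of these changes was not tested. Depth limits calls near the detection threshold.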
